A study of Mus musculus with 3 samples.

Results

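The scavenger receptors of the liver sinusoidal endothelium were followed here through 7 genes, Stab1, Stab2, Lyve1, Fcgr2b, Clec4g, Mrc1 and Cd36, which were chosen by name among the 19091 genes of the count tables. All 7 were measured in each of 3 Drop-seq libraries, 1 of control livers, 1 of livers taken 1 day postinjury (p.i.) and 1 of livers taken 7 days p.i., here called day 1 and day 7. The injury was irreversible electroporation (IRE), in which short electric pulses destroy cells within a limited field, and the labels give 8 pulses of 50 ms at 75 V with 1 s between them, while the study's methods give another voltage. All animals were adult C57BL/6 mice, and the control mice had sham surgery and were killed after 1 day, which left the library of day 7 with no control of its own time. A punch of 4 mm was taken from the treated area or from the matching intact area, digested with enzymes, and pooled from 3 livers for each library. Each condition had a single library, so no test across samples could be made, and every interval below is a 95% interval that covers counting error only.

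Sinusoidal endothelial cells line the smallest vessels of the liver and clear waste macromolecules from the blood by endocytosis. Stab1 and Stab2 encode the stabilins, large scavenger receptors, of which Stab2 is the main clearance receptor for hyaluronan, and Lyve1 encodes a hyaluronan receptor shared with lymphatic vessels. Fcgr2b encodes the inhibitory Fc receptor that takes up small immune complexes, Clec4g encodes the lectin LSECtin, Mrc1 encodes the mannose receptor that macrophages also carry, and Cd36 encodes a fatty acid and lipoprotein receptor of many endothelial cells, macrophages and platelets.

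Barcodes with at least 200 detected genes were taken as cells, which gave 10386 barcodes in control, 9253 on day 1 and 5624 on day 7, with 8013800, 6107866 and 3058967 UMIs and a median of 595, 509 and 456.5 UMIs per barcode. Barcodes with endothelial RNA were set apart by at least 1 UMI of Pecam1, Kdr or Ptprb, which encode adhesion and signaling proteins of endothelial cells (the endothelial gate). The gate held 2451 barcodes in control (23.6%, interval 22.8 to 24.4), 5729 on day 1 (61.9%, interval 60.9 to 62.9) and 251 on day 7 (4.46%, interval 3.94 to 5.04). On day 1 the gate also took 42.5% of the barcodes marked by T and NK cell genes and 42.2% of those marked by Kupffer cell genes, against 11.9% and 13.6% in control. RNA of other cells was found in the gate at both times. Hepatocyte markers took 2.63% of the gated UMIs on day 1 against 0.161% in control, and neutrophil markers took 2.81% on day 7 against 0.281% in control, and their part in the differences below was not tested. Doublets were not called and were kept. Cell barcodes found in more than 1 library numbered 68 between control and day 1, 44 between control and day 7, and 149 between day 1 and day 7. Mitochondrial UMIs made up 20.5% in control, 21.7% on day 1 and 4.10% on day 7.

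The first comparison asked how much receptor RNA each library held. Over all barcodes, the sum of the 7 receptors was 1837 CPM (receptor UMIs per 1000000 UMIs of the same barcodes) in control, 3544 on day 1 and 1040 on day 7. On day 1, 6 of the 7 receptors were higher than in control by CPM and Cd36 was lower, although 5 of these 6 were lower when counted per UMI of the gate genes. Among these 5, the interval of Stab2 included 1. On day 7, 6 receptors were lower by CPM and Fcgr2b was higher, although 4 of these 6 were higher per UMI of the gate genes. The share of all genes on either side of control was not counted. Their median log2 ratio by CPM was 0.04 on day 1 and -0.21 on day 7, over genes with at least 50 UMIs. A change in the share of endothelial barcodes and a change in the level within them cannot be told apart in these sums.

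**Figure D1:**
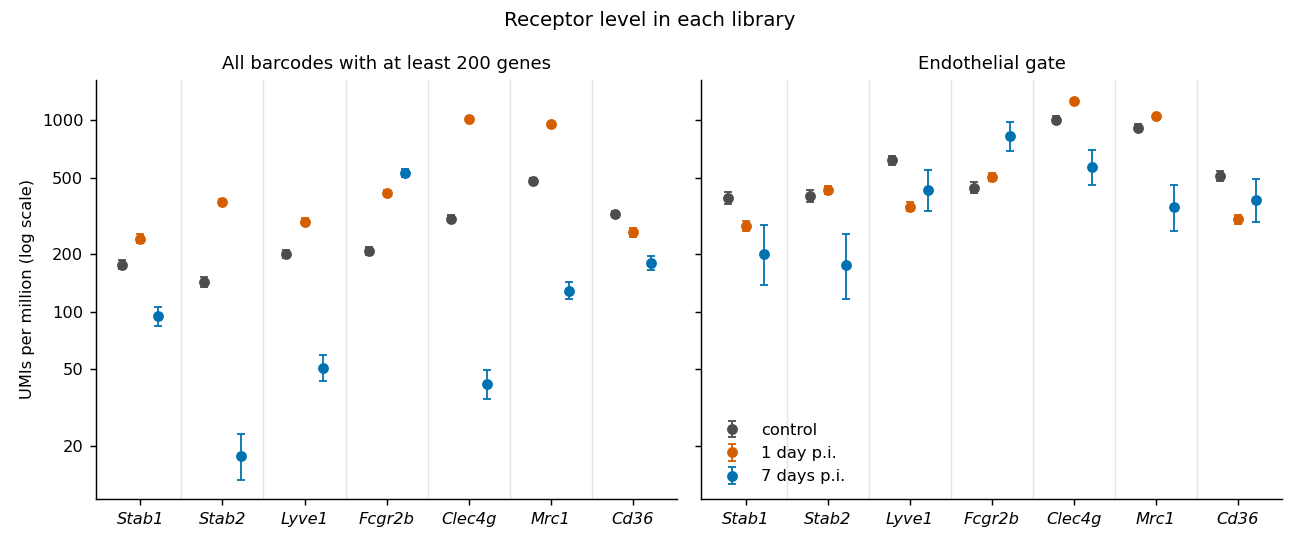
Level of each receptor in CPM (log axis) in all barcodes with at least 200 genes (left) and in the endothelial gate (right), with points for the 3 libraries and bars for the 95% Poisson interval. In all barcodes Clec4g ran from 41.8 on day 7 to 1008 on day 1, whereas in the gate it ran from 570.0 to 1254.

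By CPM both stabilins were higher on day 1 and lower on day 7 than in control. Stab2 stood at 143.4 CPM in control, 373.5 on day 1 and 17.7 on day 7, a ratio to control of 2.60 (interval 2.43 to 2.80) and of 0.123 (interval 0.0919 to 0.162). Stab1 stood at 175.9 CPM in control, 240.0 on day 1 and 94.5 on day 7, so that its ratios of 1.36 and 0.537 were closer to 1 at both times. The hyaluronan receptor Lyve1 stood at 200.03, 294.9 and 51.0 CPM in the same order, with ratios of 1.47 (interval 1.38 to 1.58) and 0.255 (interval 0.215 to 0.301). The counting intervals of these 3 genes did not overlap between libraries. How many of all genes had intervals that did not overlap was not counted.

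By CPM the lectins were likewise higher on day 1 and lower on day 7. Clec4g stood at 305.6 CPM in control, 1008 on day 1 and 41.8 on day 7, and its ratios to control were 3.30 (interval 3.15 to 3.46) and 0.137 (interval 0.114 to 0.164). Mrc1 stood at 482.3, 954.3 and 128.8 CPM, with ratios of 1.98 (interval 1.90 to 2.06) and 0.267 (interval 0.240 to 0.296). Clec4g and Mrc1 thus kept the order of libraries seen for the stabilins and Lyve1, highest on day 1 and lowest on day 7.

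The remaining receptors departed from this order. Fcgr2b was lowest in control with 207.3 CPM, followed by 414.7 on day 1 and 527.3 on day 7, and its ratios were 2.00 (interval 1.88 to 2.13) and 2.54 (interval 2.37 to 2.73). Cd36 was highest in control with 322.6 CPM, followed by 259.2 on day 1 and 179.1 on day 7, with ratios of 0.803 (interval 0.754 to 0.856) and 0.555 (interval 0.506 to 0.609). Fcgr2b was the one receptor above control on day 7 by the CPM of all barcodes. The ratio of Cd36 on day 1 turned to 1.05 when each barcode was thinned to 300 UMIs.

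Receptors past a 2-fold difference were counted beside all genes with at least 50 UMIs in the libraries compared. On day 1, 3 of 7 receptors were at least 2-fold higher (Stab2, Fcgr2b and Clec4g), where 12.2% of 11357 genes were, and 0 of 7 were at least 2-fold lower, where 5.86% of genes were. On day 7, 1 of 7 was at least 2-fold higher (Fcgr2b), where 8.79% of 10227 genes were, and 4 of 7 were at least 2-fold lower (Stab2, Lyve1, Clec4g and Mrc1), where 21.8% of genes were. The median log2 ratio of the 7 receptors was 0.98 on day 1 and -1.90 on day 7, beside 0.04 and -0.21 over all genes tested, so that the median of the receptors on day 7 was lower also relative to the shift of the median gene, although Fcgr2b was higher. Both comparisons share the control library.

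The amount of endothelial RNA in the library moved with these differences. The 3 gate genes summed to 770.4 CPM in control, 2140 on day 1 and 130.8 on day 7. Counted per UMI of the gate genes, the receptors on day 1 turned from higher to lower for Stab1 (ratio 0.491), Stab2 (0.938), Lyve1 (0.531), Fcgr2b (0.720) and Mrc1 (0.712), stayed lower for Cd36 (0.289) and stayed higher for Clec4g (1.19, interval 1.13 to 1.24). The interval of Stab2 (0.873 to 1.01) included 1. On day 7 the same count kept Stab2 (0.725) and Clec4g (0.807) below control and put Stab1 at 3.16, Lyve1 at 1.502, Mrc1 at 1.57, Cd36 at 3.27 and Fcgr2b at 14.99. The direction of 4 receptors on day 7 thus also turned with the unit, and the part of the endothelial share in the differences was not tested.

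The second comparison asked whether the receptors differed within the endothelial gate. There the sum of the 7 receptors was 4279 CPM in control, 4172 on day 1 and 2932 on day 7, a ratio of 0.975 (interval 0.950 to 1.00) and of 0.685 (interval 0.623 to 0.752). The ratio of the sum on day 1 was 1.03 without the shared barcodes, 0.799 after thinning, and 0.744 and 0.741 with at least 2 and at least 3 gate UMIs.

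Stab1, Lyve1 and Cd36 were lower in the gate on day 1 than in control. Lyve1 stood at 616.1 CPM in control, 353.5 on day 1 and 432.2 on day 7, and its ratio on day 1 was 0.574 (interval 0.531 to 0.620). Cd36 stood at 509.1, 302.5 and 382.1 CPM, with a ratio of 0.594 (interval 0.546 to 0.646) on day 1. Stab1 stood at 393.3, 279.3 and 200.5 CPM, with a ratio of 0.710 (interval 0.648 to 0.779) on day 1. In all 15 alternative counts of the gate on day 1 these 3 receptors stayed below control, over a range of 0.411 to 0.609 for Lyve1, 0.492 to 0.810 for Cd36 and 0.518 to 0.769 for Stab1. These were the receptors whose direction in the gate on day 1 did not hang on how the gate was drawn.

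Clec4g, Mrc1 and Fcgr2b were slightly higher in the gate on day 1, and this direction turned with a stricter gate. Clec4g stood at 1004 CPM in control, 1254 on day 1 and 570.0 on day 7, with a ratio of 1.25 (interval 1.19 to 1.32) on day 1 that turned to 0.914 with at least 2 gate UMIs and to 0.990 after thinning. Mrc1 stood at 911.3, 1044 and 350.8 CPM, and its ratio of 1.15 turned to 0.931 and 0.966 in the same counts. Fcgr2b stood at 444.1, 504.7 and 820.6 CPM, and its ratio of 1.14 turned to 0.882 and 0.907. The ratio of Stab2, which stood at 401.7 CPM in control, 433.3 on day 1 and 175.4 on day 7, was 1.08 with an interval (0.992 to 1.17) that included 1. It fell below 1 in 4 of 15 alternative counts, with 0.855 after thinning, 0.773 with at least 2 gate UMIs, 0.716 with at least 3 and 0.982 in barcodes grouped as endothelial by a wider set of markers.

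On day 7 Stab1, Stab2 and Mrc1 were lower and Fcgr2b was higher in the gate than in control, and these 4 kept their side of 1 in every alternative count that gave a value. The alternative ratios ran from 0.411 to 0.761 for Stab1, 0.327 to 0.809 for Stab2, 0.310 to 0.650 for Mrc1 and 1.15 to 2.24 for Fcgr2b. For Stab2 and Mrc1 the value nearest 1 came with at least 2 gate UMIs, and for Stab1 with at least 3. The ratio of Mrc1 was 0.385 (interval 0.290 to 0.502), that of Stab2 was 0.437 (interval 0.288 to 0.636) and that of Stab1 was 0.510 (interval 0.346 to 0.725). For Fcgr2b the ratio was 1.85 (interval 1.53 to 2.22), beside 4.03 (interval 3.69 to 4.40) outside the gate. In the 179 barcodes of day 7 with 1 gate UMI it stood at 565.4 CPM (interval 435.5 to 722.1), beside 511.2 outside the gate. Clec4g (0.568), Lyve1 (0.702) and Cd36 (0.751) were also lower, yet with at least 2 gate UMIs they turned to 1.08, 1.19 and 1.22. The gate on day 7 held few receptor UMIs, from 28 for Stab2 to 131 for Fcgr2b.

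By the 2-fold rule the gate held fewer differences. On day 1, 0 of 7 receptors were at least 2-fold higher, where 9.47% of 9345 genes were, and 0 of 7 were at least 2-fold lower, where 3.34% of genes were. On day 7, 0 of 7 were at least 2-fold higher, where 12.6% of 5591 genes were, and 2 of 7 were at least 2-fold lower (Stab2 and Mrc1), where 15.8% of genes were. The median log2 ratio of the receptors was 0.11 on day 1 and -0.82 on day 7, beside -0.0017 and 0.03 over all genes tested.

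**Figure D2:**
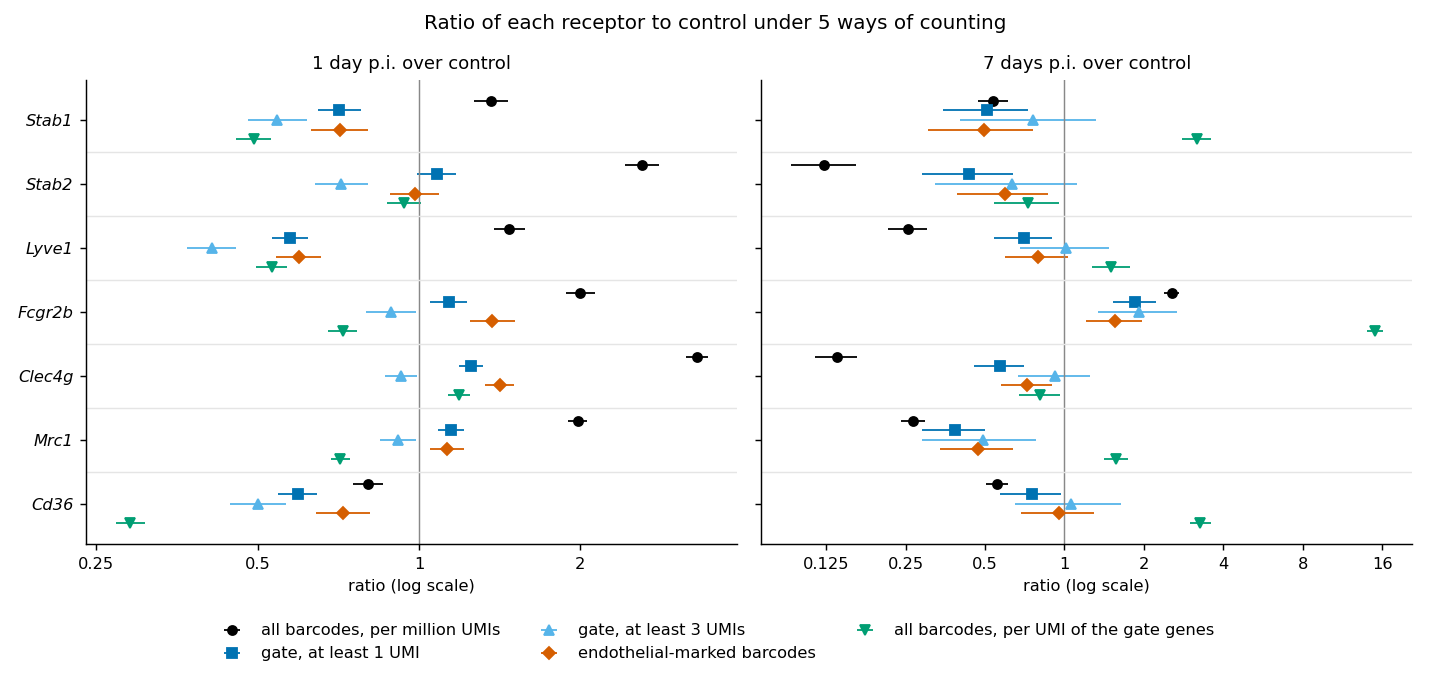
Ratio of each receptor to control (log axis) on day 1 (left) and day 7 (right) in all barcodes, in the gate with at least 1 or at least 3 gate UMIs, in endothelial-marked barcodes, and in all barcodes per UMI of the gate genes, with bars for the 95% interval. On day 1 Lyve1 lies below 1 in each count but the CPM of all barcodes, where it is 1.47.

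In control and on day 1 the level of each receptor climbed with the number of gate UMIs in a barcode, and on day 7 it climbed up to 2 gate UMIs. In control, Clec4g went from 68.8 CPM in barcodes with 0 gate UMIs to 386.5 with 1, 1221 with 2 and 1813 with 3 or more. On day 1 it went from 539.1 to 873.0, 1170 and 1680, so that barcodes outside the gate already held 7.83 times the control level. On day 7 it went from 12.8 to 88.4, 1841 and 1669, and 179 of the 251 gated barcodes had only 1 gate UMI. With 2 gate UMIs, and with 3 or more, the intervals on day 7 overlapped those of control, and they rested on 36 barcodes each.

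Mrc1 in barcodes with 2 gate UMIs was close in all libraries, with 974.3 CPM in control, 1010 on day 1 and 995.3 on day 7, whose intervals overlapped. With 3 or more gate UMIs it was 1396, 1275 and 682.9. Lyve1 in barcodes with 3 or more gate UMIs was 1083 CPM in control, 444.7 on day 1 and 1100 on day 7, so that the library on day 1 stood apart from the other two. Fcgr2b in the same barcodes was 754.8, 669.7 and 1442 CPM, with the library on day 7 apart.

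**Figure D3:**
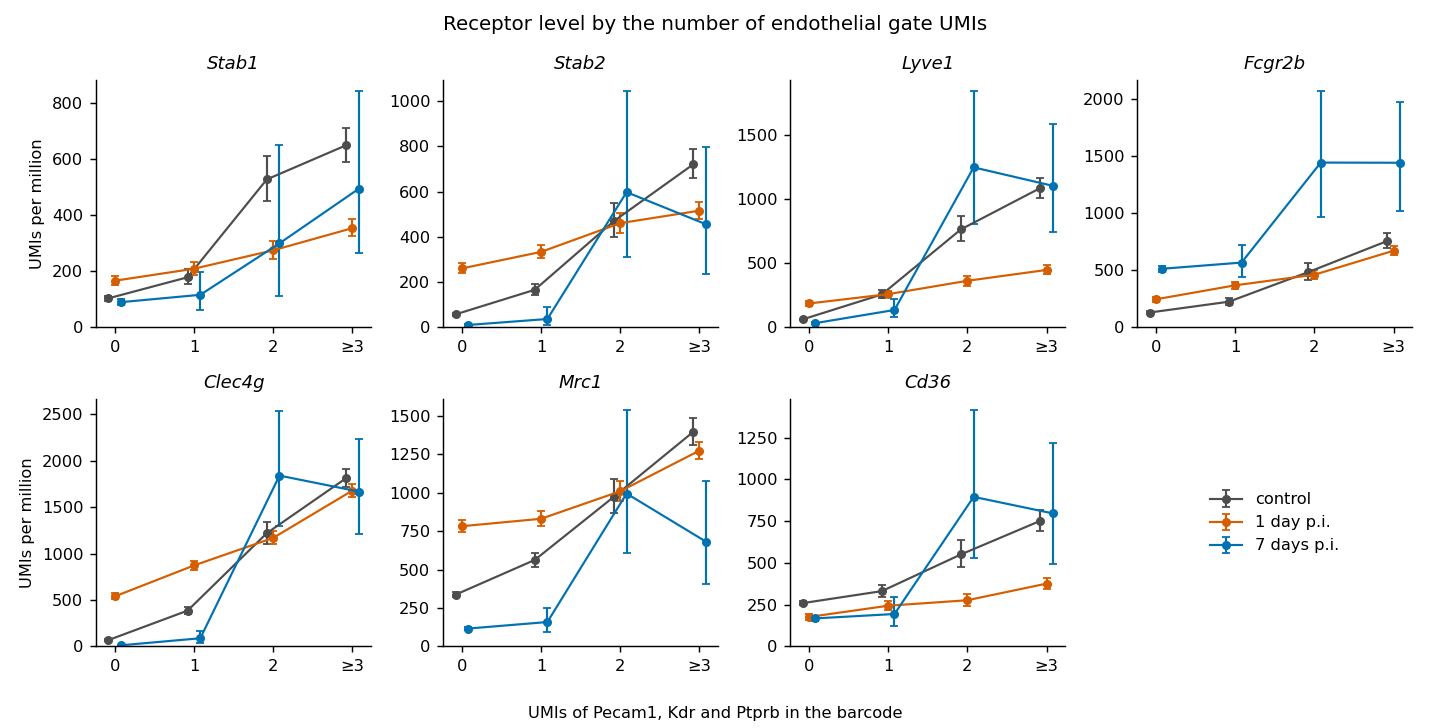
Level of each receptor in CPM against the number of UMIs of Pecam1, Kdr and Ptprb in the barcode (0, 1, 2, or 3 and more), with a line for each library and bars for the 95% Poisson interval. The lines for day 1 start above control at 0 gate UMIs for all receptors but Cd36 (Clec4g 539.1 against 68.8), and those for day 7 rest on 36 barcodes each at 2 UMIs and at 3 or more.

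How far the receptors were enriched in the gate differed between libraries and receptors. Clec4g was 14.6 times higher in the gate than outside it in control, 2.33 times on day 1 and 44.7 times on day 7. Stab2 was 7.20, 1.67 and 19.6 times higher in the gate. Fcgr2b, with 3.50, 2.08 and 1.61 times, was enriched least on day 7. Cd36, with 1.96, 1.71 and 2.27 times, and Mrc1, with 2.71, 1.33 and 3.01 times, were the least enriched of the 7 receptors in control. There the gate held 40.0% and 47.8% of their UMIs. Barcodes under 200 genes, which were not taken as cells, carried Clec4g at 219.4 CPM in control, 720.4 on day 1 and 25.6 on day 7.

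Barcodes were also grouped by marker genes that include none of the 7 receptors. A barcode was called endothelial-marked when it held at least 3 UMIs of endothelial and sinusoidal markers, at least 2 times the number its library's average would give, and more by that ratio than for any other marker list. This gave 1393 barcodes in control (13.4%), 1607 on day 1 (17.4%) and 93 on day 7 (1.65%). The rule was strictest on day 1, where 2853 barcodes reached 3 marker UMIs without being called, against 277 in control and 6 on day 7. At the minimum of 3 marker UMIs stood 190, 22 and 22 of the called barcodes. The median called barcode held 6, 7 and 5 endothelial marker UMIs, beside 0, 6 and 0 of hepatocyte markers, 0, 1 and 0 of Kupffer cell markers and 0, 0 and 7 of neutrophil markers. Their part in the results was not tested.

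In endothelial-marked barcodes the split on day 1 was the same as in the gate. Stab1 stood at 708.4 CPM in control and 504.0 on day 1 (ratio 0.711, interval 0.629 to 0.804), Lyve1 at 1223 and 729.0 (ratio 0.596, interval 0.540 to 0.657) and Cd36 at 768.4 and 554.6 (ratio 0.722, interval 0.642 to 0.811). Clec4g stood at 2031 and 2870 (ratio 1.41, interval 1.33 to 1.502), Fcgr2b at 817.3 and 1120 (ratio 1.37, interval 1.25 to 1.51) and Mrc1 at 1526 and 1720 (ratio 1.13, interval 1.05 to 1.21). Stab2, with 787.3 and 772.8 CPM, had a ratio of 0.982 and an interval of 0.883 to 1.09. Within endothelial-marked barcodes, lower Stab1, Lyve1 and Cd36 thus stood beside higher Clec4g and Fcgr2b. In barcodes with at least 3 gate UMIs, by contrast, Clec4g and Fcgr2b had ratios of 0.927 and 0.887.

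On day 7 endothelial-marked barcodes held 358 receptor UMIs in all. Mrc1 was lower than in control at 716.9 CPM (ratio 0.470, interval 0.338 to 0.636), as were Stab1 at 350.1 (ratio 0.494, interval 0.304 to 0.762), Stab2 at 466.8 (ratio 0.593, interval 0.391 to 0.864) and Clec4g at 1467 (ratio 0.723, interval 0.577 to 0.895). Fcgr2b was higher at 1267 (ratio 1.55, interval 1.21 to 1.97). The intervals of Lyve1 (ratio 0.790, interval 0.596 to 1.03) and Cd36 (ratio 0.955, interval 0.687 to 1.30) included 1.

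The background was read from barcodes marked by T and NK cell genes, which should lack these receptors. Free RNA and doublets cannot be told apart in such barcodes. In these barcodes Clec4g stood at 55.4 CPM in control, 626.3 on day 1 and 13.2 on day 7, so that the endothelial-marked level was 36.7 times, 4.58 times and 111 times as high. The T and NK-marked value of day 7 rested on 1 UMI, and the interval of the ratio of 111 was 19.4 to 4429. A UMI of Clec4g was found in 65.6% of endothelial-marked and 3.76% of T and NK-marked barcodes in control (median depth 537 and 651 UMIs), in 69.3% and 28.6% on day 1 (470 and 554 UMIs), and in 39.8% and 0.730% on day 7 (541 and 481 UMIs). A UMI of Stab2 was found in 35.2% and 3.59% in control and in 33.0% and 18.7% on day 1. On day 7 it was in 24.7% of endothelial-marked barcodes and in 0 of 137 T and NK-marked barcodes, which allows a share of up to 2.19% of such barcodes with a UMI and sets no limit on cells that hold the transcript. All 7 receptors together were 18.8 times higher in endothelial-marked than in T and NK-marked barcodes in control, 3.53 times on day 1 and 16.1 times on day 7. Levels of endothelial receptors in other cells on day 1 were therefore read as background where they came near those of T and NK-marked barcodes.

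**Figure D4:**
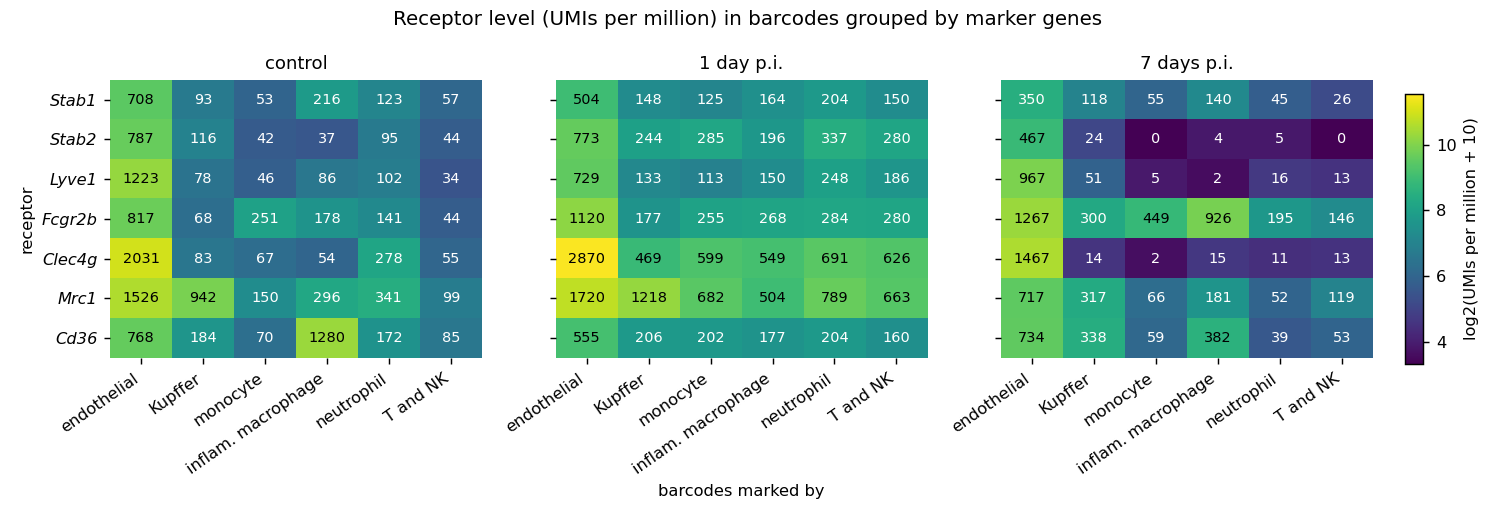
Level of each receptor in CPM (printed in each cell, color on a log2 scale after adding 10) in barcodes marked by genes of 6 cell classes, in each library. The T and NK column runs from 33.6 to 98.9 in control and from 150.1 to 662.6 on day 1, and Fcgr2b in the inflammatory macrophage column stands at 177.7, 268.2 and 926.2.

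Fcgr2b had myeloid sources beside the endothelium. Inflammatory macrophage-marked barcodes (genes such as Arg1, Ccl2, Spp1 and Fn1) held Fcgr2b at 177.7 CPM in control, 268.2 on day 1 and 926.2 on day 7, a ratio of 5.21 (interval 4.28 to 6.37) on day 7. In Kupffer-marked barcodes it stood at 67.9, 177.0 and 300.4, and in monocyte-marked barcodes at 250.6, 255.1 and 448.6 CPM. T and NK-marked barcodes held 43.5, 279.5 and 145.5 CPM, so that all myeloid values on day 1 were at or below background. Endothelial-marked barcodes supplied 44.3% of all Fcgr2b UMIs in control, 39.3% on day 1 and 4.71% on day 7, while inflammatory macrophage-marked barcodes supplied 8.13%, 1.62% and 26.3%. The higher Fcgr2b of the whole library on day 7 thus lay mostly outside the endothelial gate, which held 8.12% of its UMIs and 5.22% of all UMIs.

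Cd36 and Mrc1 also had macrophage sources. Inflammatory macrophage-marked barcodes held Cd36 at 1280 CPM in control, 176.6 on day 1 and 382.3 on day 7, with ratios of 0.138 (interval 0.0905 to 0.202) and 0.299 (interval 0.253 to 0.351). In control they supplied 37.6% of all Cd36 UMIs, more than the 26.7% of endothelial-marked barcodes. The value on day 1 was close to the 160.5 of T and NK-marked barcodes. Mrc1 in Kupffer-marked barcodes stood at 942.5 CPM in control, 1218 on day 1 and 317.3 on day 7, a ratio of 0.337 (interval 0.270 to 0.415) on day 7, and they supplied 32.3%, 21.5% and 23.9% of its UMIs. Mrc1 on day 7 was thus lower than in control in endothelial-marked and in Kupffer-marked barcodes alike. T and NK-marked barcodes held Mrc1 at 98.9 CPM in control, 662.6 on day 1 and 119.1 on day 7. The part of this background in the Kupffer-marked and endothelial-marked values of day 1 was not tested.

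The endothelial-marked barcodes of day 7, 1.65% of the library, supplied 68.8% of Clec4g, 51.9% of Stab2 and 37.2% of Lyve1 UMIs, compared with 74.6%, 61.6% and 68.6% in control. On day 7 another 14.1% of Lyve1 UMIs lay in 12 barcodes marked by lymphatic endothelial genes, and 16.7% of these barcodes were in the gate. Over all barcodes of day 7 these genes held 259 UMIs of Pdpn, 22 of Ccl21a, 6 of Mmrn1 and 2 of Prox1. Most of the marker UMIs of this group thus came from Pdpn or Ccl21a. For Stab1, endothelial-marked barcodes supplied 45.2% of its UMIs in control and 7.27% on day 7. Inflammatory macrophage-marked barcodes supplied 22.1% of its UMIs on day 7 at a level of 139.8 CPM. T and NK-marked barcodes of day 7 held Stab1 at 26.5 CPM, which rested on 2 UMIs.

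**Figure D5:**
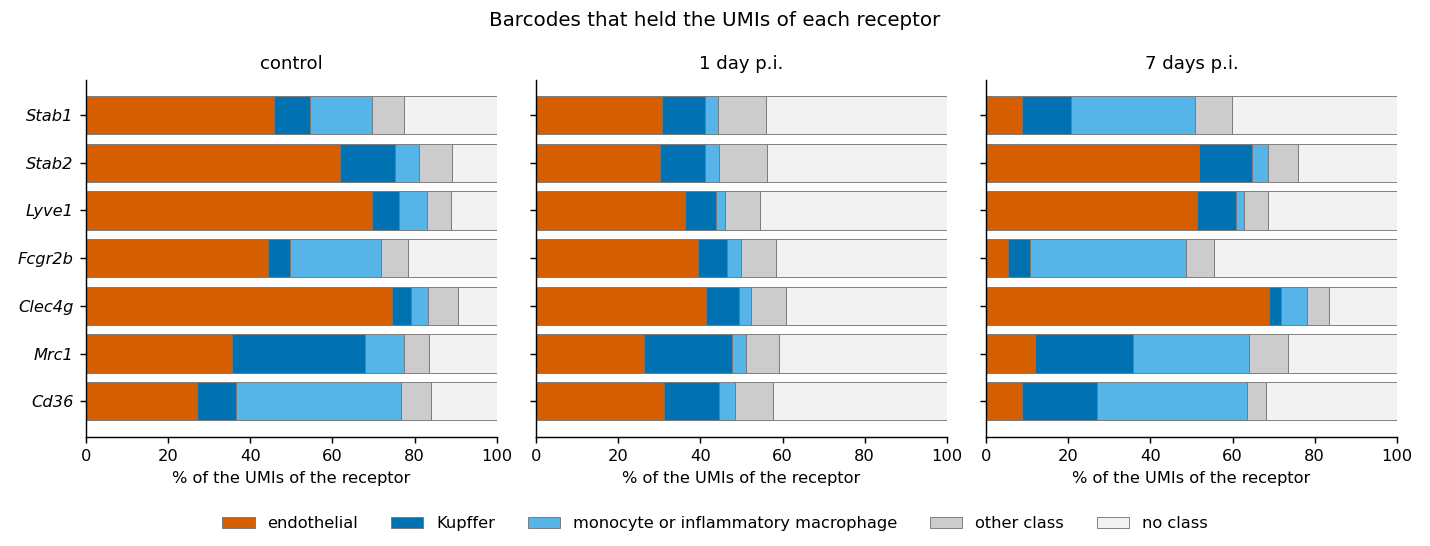
Share of the UMIs of each receptor (percent) that lay in barcodes of each marker group, in the 3 libraries, with lymphatic endothelial-marked barcodes drawn within the endothelial part and barcodes of no group in the lightest shade. On day 7 the endothelial part is largest for Clec4g and smallest for Fcgr2b.

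Several receptors were often found in the same barcode. After thinning to 300 UMIs, which left out 209, 298 and 545 shallower barcodes and applied the gate anew, at least 2 of the 7 receptors were found in 45.5% of gated barcodes in control (interval 43.0 to 48.0), 34.3% on day 1 (interval 32.8 to 35.8) and 23.2% on day 7 (interval 16.7 to 30.7). Outside the gate the shares were 4.92%, 17.3% and 1.87%. On day 1 the share of barcodes with several receptors was therefore lower than in control in the gate and higher in the rest of the library. A UMI of Clec4g was in 35.1% of thinned gated barcodes in control, 33.5% on day 1 and 13.9% on day 7, compared with 43.2%, 45.4% and 15.1% before thinning. A UMI of Lyve1 was in 21.1%, 11.3% and 14.6% of thinned gated barcodes, compared with 27.0%, 18.2% and 15.1% before thinning.

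Genes with the most similar pattern were sought over 31 points, each a marker group in a library with at least 20000 UMIs, by Pearson's r of log2 CPM after adding 10, among 10067 genes. The points share libraries, and the endothelial marker group was defined by some of these genes, so that r is a description only. Clec4g was nearest to Ptprb (r = 0.97), Oit3 (0.95) and Fam167b (0.95), of which Ptprb and Oit3 define the group. Lyve1 was nearest to F8 (0.95), which encodes coagulation factor VIII, Gpr116 (0.92) and Ppap2b (0.92). Stab2 was nearest to Gpihbp1 (0.94), which anchors lipoprotein lipase on capillary endothelium, Cyp4b1 (0.90) and Cd59a (0.89). Mrc1 was nearest to Sh3bp5 (0.92), Cd38 (0.89) and Mertk (0.89), a phagocytic receptor of macrophages. Stab1 (Ushbp1, Icam2 and Plxnd1, 0.79 to 0.81), Fcgr2b (Cd93, Dleu2 and Ets2, 0.74 to 0.77) and Cd36 (Cmtm3, Tmcc3 and Ggta1, 0.68 to 0.76) had no gene as close. Among the receptors themselves, r was highest for Clec4g and Stab2 (0.89) and lowest for Clec4g and Fcgr2b (0.42).

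Most other genes of the endothelium were higher on day 1 and lower on day 7 in all barcodes. On day 1, 9 of 10 endothelial genes, which include the 3 gate genes, were at least 2-fold higher, beside 12.2% of all genes, and 0 were at least 2-fold lower, with a median log2 ratio of 1.27, and Ptprb went from 467.7 to 1399 and Kdr from 209.6 to 562.4 CPM. On day 7, 10 of 10 were at least 2-fold lower, beside 21.8% of all genes, with a median of -2.29. Among 14 measured sinusoidal identity genes, 11 were at least 2-fold higher on day 1 (median 1.53), among them Ehd3 (ratio 4.29), Dnase1l3 (3.63) and Wnt2 (5.34), and 9 of the 12 tested on day 7 were at least 2-fold lower (median -2.68). The sinusoidal identity genes with the most UMIs, the protease gene Ctsl and the transcription factor gene Maf, stayed within 2-fold at both times, with ratios of 0.637 and 1.37 on day 1 and 0.919 and 0.527 on day 7. All receptors but Cd36, which was below control, shared the direction of most of these genes on day 1 by CPM. Of the receptors, only Stab2, Clec4g and Fcgr2b were at least 2-fold higher there.

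Within the gate the level of the 3 gate genes is set by the gate itself, so that they were left out there. The median log2 ratio on day 1 was -0.0079 for the other 7 endothelial genes, with 0 past 2-fold, and 0.05 for the 14 sinusoidal identity genes, of which Wnt2 (ratio 2.11) and Wnt9b (2.39) were at least 2-fold higher, beside 9.47% of all genes. On day 7, 0 of the 7 endothelial genes were past 2-fold and 3 of 12 sinusoidal identity genes were at least 2-fold lower (Ehd3, Ppap2b and Wnt2, the last with 1 UMI), beside 15.8% of all genes, with medians of -0.58 and -0.86.

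Other scavenger and endocytic receptors, most of them known from macrophages or hepatocytes, moved in both directions. In all barcodes 6 of 20 tested were at least 2-fold higher on day 1, beside 12.2% of all genes, among them the Kupffer cell lectin Clec4f, from 946.4 to 1920 CPM, and the hepatocyte receptors Asgr1 (ratio 14.1) and Asgr2 (10.1), while the macrophage receptor Marco had a ratio of 0.687. On day 7, 4 of 19 were at least 2-fold higher, beside 8.79% of all genes, among them Msr1 (2.06), Cd68 (2.63) and Clec4n (5.94), and 7 were at least 2-fold lower, beside 21.8% of all genes, among them Clec4f (0.180) and Marco (0.482). The median log2 ratio was 0.36 on day 1 and -0.56 on day 7.

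Most other Fc receptor genes known from myeloid cells were higher with Fcgr2b on day 7, while Fcgr4 stayed within 2-fold. Of 5 genes 3 were at least 2-fold higher, beside 8.79% of all genes, namely Fcgr1 (ratio 3.71), Fcgr3 (3.39) and Fcer1g (3.24), which encode activating receptors and their signaling chain. Fcgrt, which encodes the neonatal Fc receptor, was at least 2-fold lower (0.234) on day 7 and at least 2-fold higher (2.06) on day 1. On day 1 the ratios of Fcgr1 (0.648), Fcgr3 (0.624) and Fcer1g (0.816) were below 1, whereas that of Fcgr2b was 2.00. In the gate on day 7 Fcgr1 (4.82), Fcgr3 (4.79) and Fcer1g (3.80) were likewise at least 2-fold higher, beside 1.85 for Fcgr2b.

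Genes of endocytosis and the lysosome mostly stayed within 2-fold, as did most of all genes. Of 15 such genes 0 were at least 2-fold higher on day 1, beside 12.2% of all genes. In the same comparison 1 was at least 2-fold lower (Ctss, from 2401 to 1034 CPM), beside 5.86% of all genes. Rab7 was at least 2-fold higher on day 7 (ratio 2.79), beside 8.79% of all genes. Ctsb, the member with the most UMIs, stood at 2682 CPM in control, 2167 on day 1 and 3439 on day 7. The median log2 ratios of -0.29 and 0.16 lay closer to 0 than those of the 7 receptors.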

How the data were processed

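Cells of punched liver tissue were captured by Drop-seq, in 1 library per condition with 3 livers pooled in each. The deposited matrices, made by the authors, hold raw UMI counts per gene and barcode. The submitters' processing notes name STAR 2.5.2a and the build hg19, a human build, while the gene symbols are those of mouse, so that no coordinates are given here. Receptor UMIs were summed by library over the barcodes of a population and divided by all its UMIs (per 1000000). Levels have exact Poisson intervals, shares have exact Clopper-Pearson intervals and ratios have conditional binomial intervals, all at 95%. Of these, only the ratio intervals were tested on simulated data, which were drawn as Poisson counts. No doublet caller was run. A share of 0 was given the limit of 3 counts. The receptors and gene lists were chosen with earlier results of these data known, and the thresholds of the marker groups were set after the data were seen. Genes named from each list were those with the most UMIs and those past 2-fold. The result of 1 list member is not reported here. From the lists, Plpp3 and Dab2 were not in the tables under these symbols. Python 3.11.15, numpy 2.4.6, scipy 1.17.1 and pandas 2.3.3 were used.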

Additional observations from a re-analysis of the deposited data

Results flagged for a closer look

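By CPM, some receptors differed from control in opposite directions at the 2 times after IRE. Both ratios of each gene share the control library, and the difference between the times was not tested. Over all barcodes the ratio to control on day 1 and on day 7 was 1.36 and 0.537 for Stab1, 2.60 and 0.123 for Stab2, 1.47 and 0.255 for Lyve1, 3.30 and 0.137 for Clec4g, and 1.98 and 0.267 for Mrc1. Counted per UMI of the gate genes over all barcodes, Stab1 (0.491 and 3.16), Lyve1 (0.531 and 1.502) and Mrc1 (0.712 and 1.57) turned at both times, Stab2 was below 1 at both (0.938 and 0.725), and Clec4g kept its directions (1.19 and 0.807). The interval of Stab2 on day 1 in this count included 1. Within the endothelial gate the ratios were 1.25 and 0.568 for Clec4g and 1.15 and 0.385 for Mrc1, and both genes fell below 1 on day 1 with at least 2 gate UMIs.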

How the results depend on the processing

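Of 331 alternative values for a single receptor, 230 stayed within the counting interval of the reported value, 76 moved beyond it and 25 turned to the other side of 1. Among the 76 were 4 below 1 for Stab2 in the gate on day 1, whose reported interval included 1. With 1 library per condition no replicate could be left out, and sampling of animals is not covered. Gates with at least 3 gate UMIs, endothelial-marked barcodes and thinned gate shares were chosen after seeing the data. The causes of the changes were not tested. For the sum of the 7 receptors over all barcodes, the ratio on day 1 was 1.99 with at least 100 genes, 1.99 with every barcode, 1.98 without hepatocyte and erythroid markers in the total, 1.87 with at most 20% mitochondrial UMIs, 2.04 without shared barcodes and 0.695 per UMI of the gate genes. On day 7 it was 0.523 with at least 100 genes, 0.596 with at least 300, 0.524 with every barcode, 0.470 per non-mitochondrial UMI, 0.498 after thinning and 3.34 per UMI of the gate genes. Per UMI of the gate genes, the receptors that turned were Stab1 (0.491), Stab2 (0.938, with an interval that included 1), Lyve1 (0.531), Fcgr2b (0.720) and Mrc1 (0.712) on day 1, and Stab1 (3.16), Lyve1 (1.502), Mrc1 (1.57) and Cd36 (3.27) on day 7. Thinning turned Cd36 on day 1 to 1.05. For the sum in the gate, the ratio on day 1 was 1.01 with at least 300 genes, 1.05 with at most 20% mitochondrial UMIs, 0.799 after thinning, 1.03 without shared barcodes, 0.744 with at least 2 gate UMIs, 0.741 with at least 3, 0.908 with Kdr or Ptprb alone, 1.03 without barcodes holding macrophage or neutrophil markers, 0.909 per UMI of the gate genes and 1.05 in endothelial-marked barcodes. On day 7 it was 0.552 per non-mitochondrial UMI, 0.610 after thinning, 1.07 with at least 2 gate UMIs, 0.926 with at least 3, 0.813 with Kdr or Ptprb alone, 0.201 without macrophage or neutrophil markers, where 6 barcodes remained and 5 receptors gave no value, 0.832 per UMI of the gate genes and 0.759 in endothelial-marked barcodes. In the gate on day 1, thinning and at least 2 or at least 3 gate UMIs gave 0.907, 0.882 and 0.887 for Fcgr2b, 0.990, 0.914 and 0.927 for Clec4g, and 0.966, 0.931 and 0.913 for Mrc1. In the gate on day 7, at least 2 gate UMIs gave 1.19 for Lyve1, 1.08 for Clec4g and 1.22 for Cd36, at least 3 gave 1.02 for Lyve1 and 1.06 for Cd36, and Cdh5, Egfl7, Eng or Flt1 as the gate gave 1.04 for Lyve1. The share of barcodes in the gate for control, day 1 and day 7 was 21.2%, 52.1% and 3.10% with at least 100 genes, the same to 3 digits with every barcode, 25.2%, 67.8% and 5.76% with at least 300 genes, 15.7%, 45.4% and 2.97% after thinning, 12.7%, 35.3% and 1.28% with at least 2 gate UMIs, 8.18%, 19.6% and 0.640% with at least 3, 21.3%, 59.4% and 2.93% with Kdr or Ptprb alone, 7.22%, 11.6% and 0.107% without macrophage or neutrophil markers, and 13.4%, 17.4% and 1.65% for endothelial-marked barcodes. With Cdh5, Egfl7, Eng or Flt1 it was 17.5%, 39.7% and 2.92%, and with at most 20% mitochondrial UMIs it was 20.3% in control and 56.4% on day 1. The share of all genes at least 2-fold apart rose with a minimum of 1 UMI per gene, to 20.3% higher and 15.1% lower on day 1 and 37.5% lower on day 7 over all barcodes, and to 22.4% higher and 10.6% lower on day 1 and 42.3% lower on day 7 in the gate. With a minimum of 200 UMIs the lower share on day 7 was 13.7% over all barcodes and 9.37% in the gate, and per non-mitochondrial UMI the higher share in the gate on day 7 was 7.10%.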
